A study of Mus musculus with 16 samples.

Results

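Genes of the hepatic stellate cell and of the extracellular matrix were followed in mouse liver across genotype and feeding. The 36 genes were chosen by symbol as known stellate cell and matrix genes, and 35 of them were measured among the 19935 genes of the array. Each was read by 1 probe set, and Ctgf was found under its current name Ccn2. The remaining gene, Fbn1, was not matched to a probe set with 1 gene symbol and was not analysed here. The measured genes comprised 12 collagens, 7 other matrix proteins, 7 genes of matrix remodelling and 9 genes of stellate cells and their signalling.

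The mice were male, had a mixed Sv129/C57Bl/6 background and were wild-type or knockout for the nuclear receptor PPARβ/δ, which is encoded by Ppard. Within each genotype, mice were fed or had been fasted for 24 h. Liver RNA of 4 fed and 5 fasted wild-type mice and of 4 fed and 3 fasted knockouts was hybridised to 1 Affymetrix whole-transcript array per mouse, while the series' own design text states 4 to 5 mice a group. No label gives the age of the mice, the deleted part of Ppard or the cell types that lack it.

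Stellate cells lie between hepatocytes and the sinusoidal endothelium, where they store retinyl esters in the healthy liver. On activation they lose these stores, become contractile and secrete fibrillar collagens. Portal fibroblasts and vascular smooth muscle also express several of these genes. Matrix amount depends on synthesis, on crosslinking by lysyl oxidases and on the balance between matrix metalloproteinases and their tissue inhibitors, the TIMPs.

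All values are log2 of the deposited intensity, and differences are on the same log2 scale, each with its standard error from limma. Levels of different genes were not compared, since probes differ in brightness. Genes with a mean under 2.79, the 40th percentile of all genes, were taken as dim, and Col5a2, Lox and Timp1 fell under this limit. Of 10 stellate cell markers, 6 of which are also among the 36 genes, all were measured and none was dim. Their summed linear intensity was 1017 to 1327 in fed and 926 to 1177 in fasted wild-type mice, and 874 to 1119 in fed and 1117 to 1240 in fasted knockouts. Bright markers weigh most in such a sum, here Dcn with a mean of 9.39, followed by Reln with 7.08. With equal weights, the mean of log2 value minus the gene's mean over all mice was -0.06 to 0.43 in fed and -0.18 to 0.06 in fasted wild-type mice. It was -0.22 to 0.05 in fed and -0.08 to 0.13 in fasted knockouts. The 0.43 was that of wild-type fed mouse 4 and the 0.13 that of knockout fasted mouse 1. The marker Des read 6.20 and 4.95 in these, against a mean of 3.41 over all mice. All 8 measured neutrophil markers, 5 of 7 mesothelial and 4 of 8 cholangiocyte markers were dim. Because whole tissue was measured, fewer stellate cells and less RNA per cell cannot be told apart.

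The targeted gene Ppard ranged from 4.78 to 5.50 in fed and 4.40 to 4.67 in fasted wild-type mice, and from 4.45 to 5.00 in fed and 4.36 to 4.58 in fasted knockouts; without knowing the deleted part, this level checks nothing about the genotype. On the second principal component, with 13.0% of the variance of the brighter genes, knockout fed mice 1 and 4 scored 19.6 and 19.7. The other knockout fed mice scored 4.87 and 6.42. Wild-type fed mice scored from -24.1 (mouse 4) to -8.48 (mouse 1), so the component also separated the genotypes in the fed state. Fasted mice of both genotypes lay between -6.71 and 5.65. Kupffer cell markers summed to 1154 to 1231 in knockout fed against 705 to 831 in wild-type fed mice, and to 836 to 995 in knockout fasted against 529 to 873 in wild-type fasted mice, without overlap in the fed state. Pancreatic markers, of which 5 of 10 measured were dim, summed to 435 in wild-type fasted mouse 5 and to 71 to 101 in the other 15 mice. The part of any of these in the results was not tested.

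Wild-type fed mouse 4 and knockout fasted mouse 1 stood apart in the stellate cell and matrix genes themselves. Wild-type fed mouse 4 had the highest value of its group in 24 of the 35 genes, while it did so in 24.5% of all genes. Knockout fasted mouse 1 was the highest of its 3 in 21 of 35, against 36.5% of all genes. Wild-type fasted mouse 5 was the highest of its 5 in 18 of 35, against 26.7% of all genes. At the other end, wild-type fed mouse 1 was the lowest of its group in 18 of 35 (26.7% of all genes), knockout fasted mouse 3 in 17 (30.8%) and knockout fed mouse 2 in 16 (27.3%).

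Several, but not all, contractile and fibroblast genes were high in wild-type fed mouse 4 and knockout fasted mouse 1. Des, which encodes the muscle filament desmin, read 6.20 in wild-type fed mouse 4, 4.95 in knockout fasted mouse 1 and 4.68 in wild-type fed mouse 2, against 2.59 to 3.20 in all others. Dermatopontin (Dpt), a fibroblast matrix protein that is no member, read 4.10 and 3.67 in the first pair and 2.25 to 2.99 elsewhere. Smooth muscle Tagln was 4.85 and 4.18 there, and 3.32 to 4.16 in other mice. Averaged over the 19 portal fibroblast and smooth muscle genes of a fixed list, which includes Des, the first pair lay 0.45 and 0.22 above the mean of all mice. The other mice lay between -0.15 and 0.08. Of this list, Clec3b, Pi16 and Gli1 did not stand out in the pair. They read 2.98 and 2.86, 2.32 and 2.25, and 2.99 and 3.09 there. Elsewhere they read 2.85 to 3.32, 2.01 to 2.74 and 2.91 to 3.24. Over 18 measured genes of quiescent stellate cells the same pair of mice lay 0.04 and 0.11 above the mean of all mice. The other mice lay between -0.21 and 0.10. Knockout fasted mouse 1 was thus the highest of all mice on that list. On the same scale wild-type fed mouse 4 was the highest for the stellate cell (0.43), mesothelial (0.30) and cholangiocyte (0.28) markers. Some of the results that rest on wild-type fed mouse 4 and knockout fasted mouse 1, or on knockout fed mice 1 and 4, are given with and without them. The fasting changes of Col1a1, Col1a2, Acta2 and Des are given with their range over all alternatives tried, which include leaving out these mice.

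**Figure D1:**
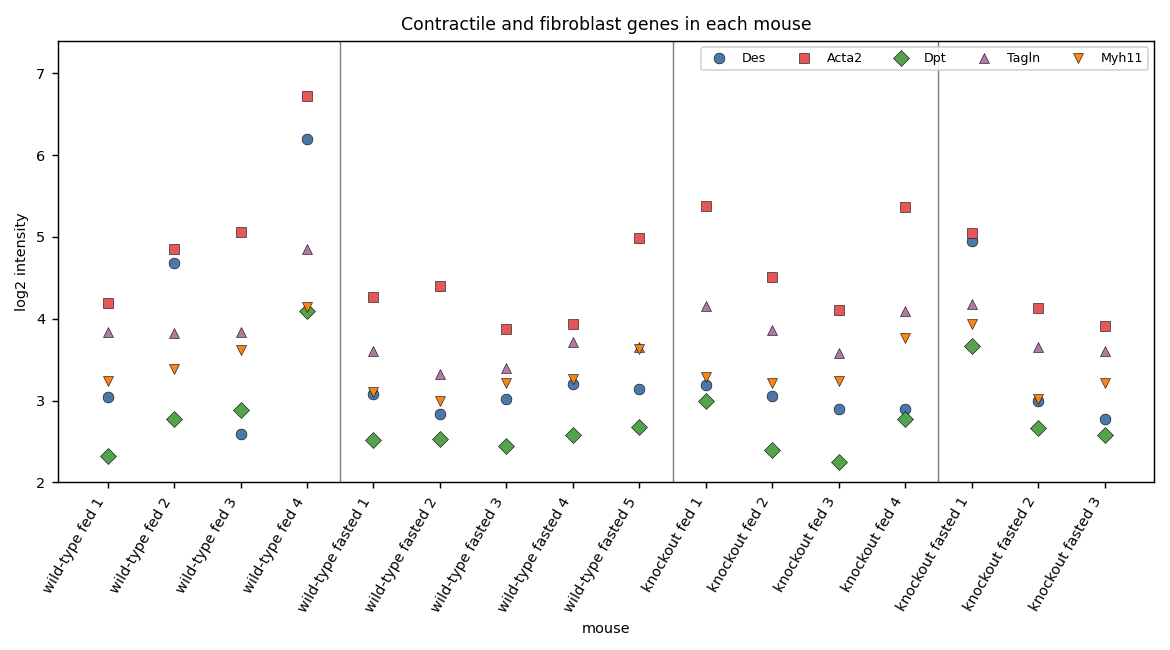
Log2 intensity (vertical axis) of Des, Acta2, Dpt, Tagln and Myh11 in each of the 16 mice (horizontal axis), with vertical lines between groups and 1 marker per gene. Wild-type fed mouse 4 is highest for all 5 genes, and Des stands out in that mouse (6.20), in wild-type fed mouse 2 (4.68) and in knockout fasted mouse 1 (4.95).

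How these genes responded to the fast was asked first in wild-type liver (5 fasted against 4 fed mice). Type III collagen (Col3a1), the leucine-rich collagen-binding proteoglycan lumican (Lum) and the matricellular protein SPARC (Sparc) fell, by 1.74-fold, 1.53-fold and 1.52-fold. None of the 35 genes passed as higher, though 14 had a positive sign. Thus 3 of 35 (8.57%) passed at an adjusted p under 0.05, all of them lower, while 9.22% of all genes passed, 3.30% higher and 5.92% lower. The share was near that of the array as a whole. At an unadjusted p under 0.05, 2 were higher (10.3% of all genes) and 7 lower (12.2%). The median change was -0.03 over the 35 genes and 0.02 over all genes.

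By role, 1 of 12 collagens, 2 of 7 other matrix proteins and none of the 7 remodelling and 9 stellate cell and signalling genes passed. In 5 genes every fasted mouse lay on 1 side of every fed mouse: Mmp14 was higher (5.25% of all genes were so), and Col3a1, Lum, Sparc and Pdgfrb were lower (6.99% of all genes). The number passing was 2 without wild-type fed mouse 4 or wild-type fasted mouse 4, 5 without wild-type fasted mouse 5 or knockout fed mouse 2, and 6 without knockout fed mouse 3. It was 3 without wild-type fed mouse 4 and knockout fasted mouse 1 together.

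In knockout mice (3 fasted against 4 fed), 1 gene passed as higher, the connective tissue growth factor Ctgf, by 1.57-fold, and none passed as lower. This was 2.86% of the 35 genes, beside 3.67% of all genes, 1.87% higher and 1.80% lower. At an unadjusted p under 0.05, 5 were higher (7.19% of all genes) and 3 lower (8.08%). The median change was -0.02 over the 35 genes and -0.02 over all genes. Without overlap between the groups were Lum, which was higher (6.17% of all genes), and Ngfr, which was lower (7.05%); neither passed the test. The number passing was 2 without knockout fed mouse 1, without knockout fed mouse 3, or without knockout fed mice 1 and 4 together, and it was 0 in 10 of the 16 fits that left out 1 array, those in which Ctgf was lost and no other gene passed. Ngfr, a neurotrophin receptor of quiescent stellate cells, differed by -0.19 ± 0.09 (adjusted p = 0.327).

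Averaged over both genotypes, fasting raised Ctgf and the membrane-type metalloproteinase Mmp14 and lowered Col3a1, Sparc and the PDGF receptor Pdgfrb. These 5 are 14.3% of the 35 genes, beside 10.9% of all genes. Of all genes 4.48% rose and 6.39% fell in this mean. At an unadjusted p under 0.05, 2 were higher (9.28% of all genes) and 7 lower (11.8%). The mean uses the same arrays as the comparisons within each genotype and is no separate evidence. Without wild-type fed mouse 4 and knockout fasted mouse 1, 4 passed, Mmp14 being the gene lost (0.50, adjusted p = 0.0518), and without knockout fed mice 1 and 4, 4 passed, Col3a1 being lost.

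**Figure D2:**
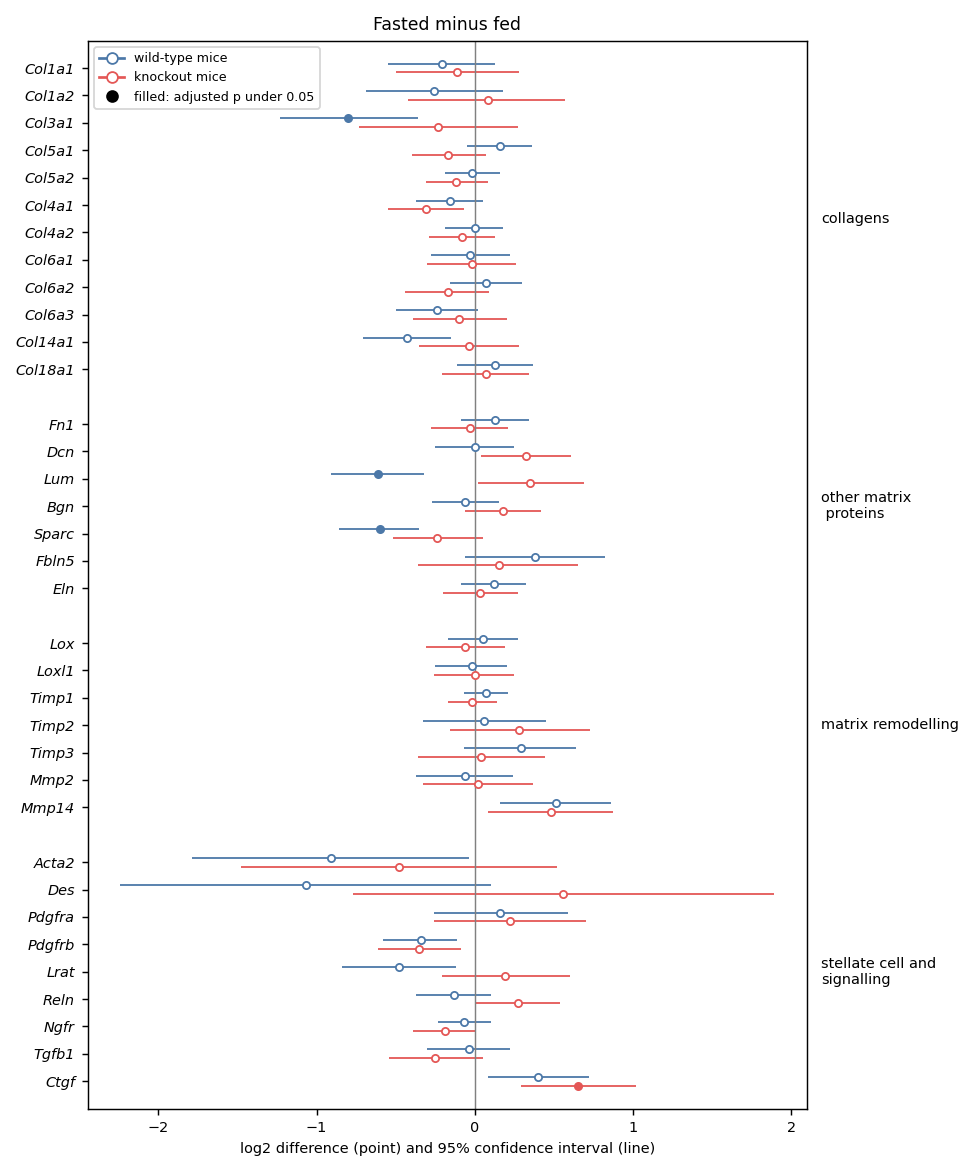
Fasted minus fed log2 difference (horizontal axis; point, with the 95% confidence interval of the limma fit as a line) for each of the 35 genes (vertical axis, grouped by role) in wild-type and knockout mice; filled points passed at an adjusted p under 0.05. Col3a1, Lum and Sparc are filled in wild-type and Ctgf in knockout mice, and the widest intervals are those of Des and Acta2.

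Promoters are shown for Col3a1 and Sparc, which fell together with fasting, and for Mmp14, which rose in the mean of both genotypes. They are the 250 bases before the RefSeq start of each gene in GRCm38.p6, written 5′ to 3′ on the strand of the gene, at chr1:45311288-45311537 (plus strand), chr11:55420081-55420330 (minus strand) and chr14:54431348-54431597 (plus strand). Capitals mark matches to 6 motifs searched on both strands: the CCAAT box (CCAAT), the GC box (GGGCGG), the TATA box (TATAAA), the AP-1 element (TGANTCA), the SMAD element (CAGACA) and the nuclear receptor half-site (AGGTCA).
Col3a1: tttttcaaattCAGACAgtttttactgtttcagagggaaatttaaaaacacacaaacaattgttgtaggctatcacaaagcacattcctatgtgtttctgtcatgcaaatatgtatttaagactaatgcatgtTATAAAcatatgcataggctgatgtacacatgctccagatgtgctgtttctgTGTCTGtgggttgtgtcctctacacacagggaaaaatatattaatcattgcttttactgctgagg
Sparc: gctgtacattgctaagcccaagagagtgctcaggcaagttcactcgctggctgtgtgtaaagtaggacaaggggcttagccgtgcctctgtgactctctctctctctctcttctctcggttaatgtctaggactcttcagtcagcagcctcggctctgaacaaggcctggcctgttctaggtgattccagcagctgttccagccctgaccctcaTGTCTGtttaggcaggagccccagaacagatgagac
Mmp14: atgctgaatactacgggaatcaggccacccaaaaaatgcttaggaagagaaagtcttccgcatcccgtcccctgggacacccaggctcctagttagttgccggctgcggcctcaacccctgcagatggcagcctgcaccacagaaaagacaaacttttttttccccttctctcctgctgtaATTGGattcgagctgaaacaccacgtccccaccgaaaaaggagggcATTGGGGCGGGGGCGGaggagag

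The Col3a1 window held TATAAA beginning 117 bases before the start and SMAD element letters at 239 bases and, as the reverse complement TGTCTG, at 65 bases. The Sparc window held TGTCTG at 36 bases and no other match. The Mmp14 window held ATTGG, the reverse complement of CCAAT, at 69 and 23 bases and GGGCGG at 19 and 13 bases. The ATTGG at 23 bases overlaps the first GC box.

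Promoters of 24 of the 36 genes were in the table, in 27 windows. Across all 32851 windows of the same length, 33.8% held the CCAAT box, 32.7% the GC box, 12.4% TATAAA, 6.75% the AP-1 element, 17.1% the SMAD element and 14% the half-site. In the 27 windows the GC box was found in 18, the CCAAT box in 9, the SMAD element in 7, TATAAA and the AP-1 element in 1 each, and the half-site in 0. These are matches of letters and do not show binding.

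Fibrillar collagens give tissue its tensile strength, and type I and type III are the main ones of the liver. Col3a1 read 4.77, 5.16, 5.15 and 6.06 in the fed wild-type mice, and 4.47, 4.50, 4.48, 4.31 and 4.68 after fasting. In knockout mice Col3a1 read 5.30, 4.92, 5.33 and 5.32 when fed and 5.46, 4.90 and 4.60 when fasted. Every wild-type fasted mouse was below every wild-type fed mouse, whereas the knockout groups overlapped.

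The fall of Col3a1 in wild-type mice was -0.80 ± 0.21 (limma adjusted p = 0.0208, lower in 5 of 5 fasted mice). It was -0.54 (adjusted p = 0.0544) without wild-type fed mouse 4 and -0.75 (adjusted p = 0.0524) without wild-type fasted mouse 4, and the call held without any other single array. Leaving out wild-type fed mouse 4 together with knockout fasted mouse 1 gave -0.54 (adjusted p = 0.0161). In knockout mice the change was -0.23 ± 0.23 (95% interval -0.73 to 0.27, adjusted p = 0.733). The difference between the fasting responses was 0.57 ± 0.31 (adjusted p = 0.464), so the responses of the genotypes were not shown to differ.

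The mean over genotypes was -0.51 ± 0.16 for Col3a1 (adjusted p = 0.0443), just under the threshold. The call was lost without any 1 of 11 arrays: wild-type fed 2 or 3, wild-type fasted 1, 2, 3 or 4, knockout fed 1, 3 or 4, and knockout fasted 2 or 3. The value was -0.54 to -0.42 in these, with adjusted p of 0.0562 to 0.147. Without knockout fed mice 1 and 4 together it was -0.47 (adjusted p = 0.16), and with the replicate number as a block -0.50 (adjusted p = 0.081).

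Col1a1 and Col1a2 encode the chains of type I collagen, the main fibre of scar tissue. Col1a1 gave 4.47, 4.77, 4.59 and 5.38 in wild-type fed and 4.48, 4.47, 4.47, 4.69 and 4.85 in wild-type fasted mice. In knockout mice Col1a1 gave 4.97, 5.02, 4.78 and 5.04 when fed and 5.21, 4.71 and 4.60 when fasted. Groups overlapped in every comparison, and the highest value was that of wild-type fed mouse 4. The fasting change was -0.21 ± 0.16 in wild-type (adjusted p = 0.461) and -0.11 ± 0.18 in knockout mice (adjusted p = 0.856). Over the alternatives tried, the wild-type value was -0.32 to -0.02 and the knockout value -0.30 to 0.01.

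Col1a2 gave 4.54, 4.66, 4.66 and 5.78 in wild-type fed and 4.59, 4.46, 4.64, 4.75 and 4.81 in wild-type fasted mice. In knockout mice Col1a2 gave 5.23, 4.75, 5.08 and 5.11 when fed and 5.51, 4.93 and 4.93 when fasted. Apart from wild-type fed mouse 4, every wild-type mouse but wild-type fasted mice 4 and 5 was below every knockout mouse. The fasting change was -0.26 ± 0.20 in wild-type (adjusted p = 0.487) and 0.08 ± 0.23 in knockout mice (adjusted p = 0.933). Over the alternatives tried, the wild-type value was -0.38 to 0.03 and the knockout value -0.12 to 0.20.

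Type IV collagen forms the sheet of basement membranes. Col4a1 gave 5.04, 5.25, 5.14 and 5.15 in wild-type fed and 4.90, 4.83, 4.96, 5.05 and 5.20 in wild-type fasted mice. In knockout mice Col4a1 gave 5.60, 5.04, 5.34 and 5.43 when fed and 4.99, 5.08 and 5.06 when fasted. Knockout fed mice 1, 3 and 4 were the 3 highest, and knockout fed mouse 2 lay among the fasted mice. The change with fasting was -0.31 ± 0.11 in knockout mice (adjusted p = 0.173). Leaving out knockout fed mouse 2 gave -0.42 (adjusted p = 0.0277). In the mean of both genotypes it was -0.23 ± 0.08 (adjusted p = 0.0592), and it passed without wild-type fasted mouse 5 (-0.26, adjusted p = 0.0295) or knockout fed mouse 2 (-0.29, adjusted p = 0.00711).

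The other 8 collagens (Col4a2, Col5a1, Col5a2, Col6a1, Col6a2, Col6a3, Col14a1 and Col18a1) changed by -0.43 to 0.16 with fasting in wild-type mice and by -0.17 to 0.07 in knockout mice, and none passed. The lowest of these was Col14a1 in wild-type mice, a collagen that binds to the surface of fibrils, at -0.43 ± 0.13 (adjusted p = 0.0519). It passed without wild-type fed mouse 1, wild-type fasted mouse 3 or 5, or knockout fed mouse 2 or 3, with values of -0.50 to -0.43 and adjusted p of 0.0321 to 0.0432. Col5a2, the direct neighbour of Col3a1 by gene order in GRCm38.p6, differed by -0.02 ± 0.08 in wild-type mice (95% interval -0.19 to 0.16, adjusted p = 0.929); it was dim.

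**Figure D3:**
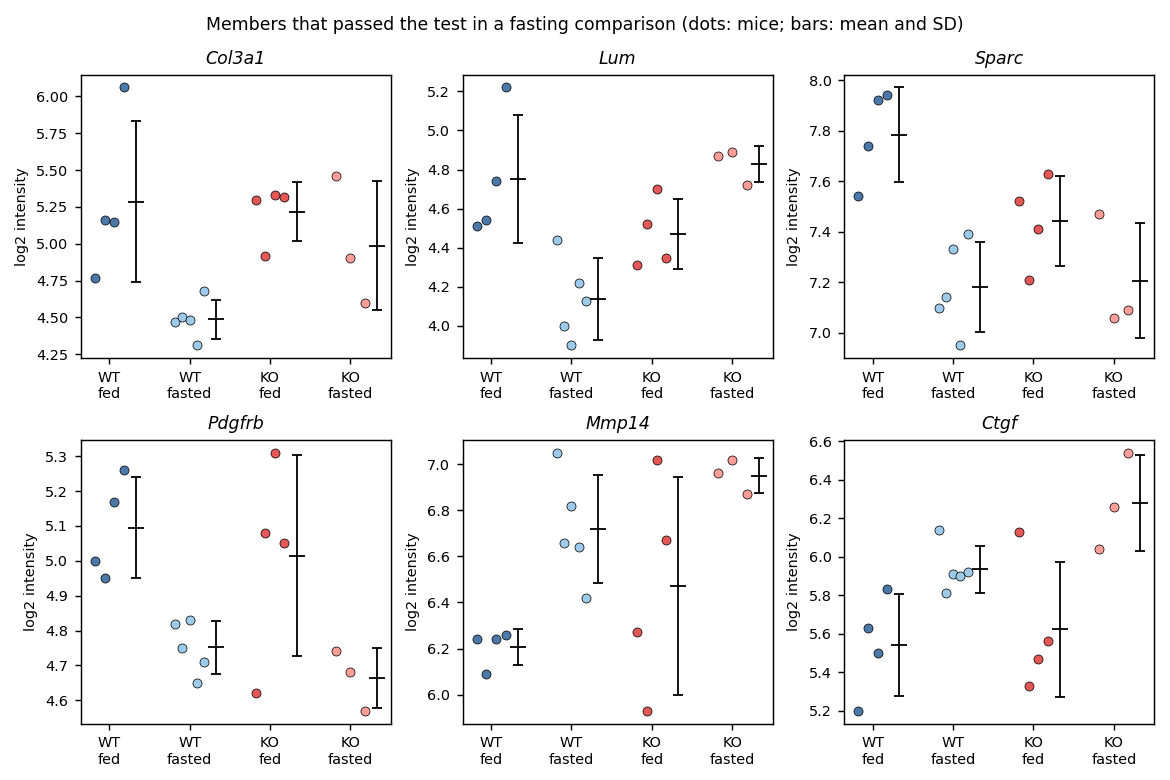
Log2 intensity (vertical axes, each with its own range) of the 6 genes that passed in a fasting comparison, by group (horizontal axis; WT is wild-type, KO is knockout); dots are mice, bars the mean and SD, with 4, 5, 4 and 3 mice. Lum is lower in every WT fasted than in every WT fed mouse and higher in every KO fasted than in every KO fed mouse.

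Lumican is a small leucine-rich proteoglycan that spaces collagen fibrils. Lum read 4.51, 4.54, 4.74 and 5.22 in the fed wild-type mice, and 4.44, 4.00, 3.90, 4.22 and 4.13 after fasting. In knockout mice Lum read 4.31, 4.52, 4.70 and 4.35 when fed and 4.87, 4.89 and 4.72 when fasted. Fasted mice were all below fed mice in wild-type liver and all above them in knockout liver. The margin was narrow in both, with wild-type fasted mouse 1 at 4.44 against 4.51 and knockout fasted mouse 3 at 4.72 against 4.70.

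In wild-type mice Lum fell by 0.61 ± 0.14 (limma adjusted p = 0.00892, lower in 5 of 5 fasted mice), and by 0.46 without wild-type fed mouse 4 (adjusted p = 0.0267). In knockout mice the change was 0.35 ± 0.16 (adjusted p = 0.29). The difference between these responses was 0.97 ± 0.21 (95% interval 0.52 to 1.41), with an unadjusted p of 2.64e-04 and an adjusted p of 0.15, which did not pass. Over the alternatives tried, this difference was 0.79 to 1.05 with adjusted p of 0.0836 to 0.316.

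Decorin (Dcn), a related proteoglycan and the direct neighbour of Lum in gene order, gave another pattern: 0.00 ± 0.12 in wild-type (95% interval -0.25 to 0.25) and 0.32 ± 0.13 in knockout mice (adjusted p = 0.244). Its difference between responses was 0.32 ± 0.18 (adjusted p = 0.475). Whether Lum and Dcn differ from each other was not tested.

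SPARC binds collagen and is secreted by several liver cell types, endothelium among them. Sparc read 7.54, 7.74, 7.92 and 7.94 in the fed wild-type mice, and 7.10, 7.14, 7.33, 6.95 and 7.39 after fasting. In knockout mice Sparc read 7.52, 7.21, 7.41 and 7.63 when fed and 7.47, 7.06 and 7.09 when fasted. All wild-type fasted mice were below all wild-type fed mice, and the knockout groups overlapped through knockout fasted mouse 1 and knockout fed mice 2 and 3.

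Sparc fell by 0.60 ± 0.12 in wild-type mice (adjusted p = 0.00372, lower in 5 of 5), the lowest adjusted p of the 35 genes in that comparison. In knockout mice the value was -0.24 ± 0.14 (adjusted p = 0.456), and the difference between the responses was 0.37 ± 0.18 (adjusted p = 0.426). The mean over genotypes was -0.42 ± 0.09 (adjusted p = 0.0051). Both calls held without any single array, and the mean was -0.35 (adjusted p = 0.0394) without knockout fed mice 1 and 4. In the same wild-type comparison 2 of 10 markers of sinusoidal endothelium passed as lower (5.92% of all genes), while 4 of the 10 had a positive sign. The summed intensity of these markers was 1028 to 1372 in fed and 907 to 1119 in fasted mice. The brightest, Clec4g, weighs most in that sum and read 7.94 to 8.92 in fed and 7.41 to 8.08 in fasted wild-type mice. The part of these markers in the result was not tested.

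The other 5 matrix proteins were fibronectin (Fn1), Dcn, biglycan (Bgn), fibulin 5 (Fbln5) and elastin (Eln), of which the last pair belong to elastic fibres. They ranged from -0.06 to 0.38 with fasting in wild-type and from -0.03 to 0.32 in knockout mice, and none passed. Fbln5 had the highest of the wild-type values, 0.38 ± 0.21 (95% interval -0.06 to 0.82).

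Mmp14 is a metalloproteinase of the cell surface that cleaves fibrillar collagen and activates pro-Mmp2. Mmp14 read 6.24, 6.09, 6.24 and 6.26 in the fed wild-type mice, and 7.05, 6.66, 6.82, 6.64 and 6.42 after fasting. In knockout mice Mmp14 read 6.27, 5.93, 7.02 and 6.67 when fed and 6.96, 7.02 and 6.87 when fasted. The wild-type groups were apart, and the knockout groups overlapped through knockout fed mouse 3.

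In the mean of both genotypes Mmp14 rose by 0.49 ± 0.13 (limma adjusted p = 0.0159), a 1.41-fold change, and this held without any single array. Within genotypes it did not pass, at 0.51 ± 0.17 in wild-type (adjusted p = 0.0668) and 0.48 ± 0.19 in knockout mice (adjusted p = 0.216). The wild-type value passed without wild-type fasted mouse 5 (0.58, adjusted p = 0.0461), knockout fed mouse 2 (0.51, adjusted p = 0.0228) or knockout fed mouse 3 (0.51, adjusted p = 0.023). The knockout value passed without knockout fed mouse 3 (0.66, adjusted p = 0.0286). The responses differed by -0.03 ± 0.25 (95% interval -0.56 to 0.50).

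Timp3, an inhibitor of metalloproteinases that is held in the matrix, read 4.79, 5.16, 5.25 and 5.41 in wild-type fed and 5.49, 5.59, 5.71, 5.13 and 5.30 in wild-type fasted mice. In knockout mice Timp3 read 5.75, 5.17, 5.86 and 5.87 when fed and 6.03, 5.62 and 5.46 when fasted. Wild-type fed mouse 1 was the lowest and knockout fasted mouse 1 the highest, and all groups compared overlapped. Its fasting change was 0.29 ± 0.17 in wild-type (adjusted p = 0.323) and 0.04 ± 0.19 in knockout mice (adjusted p = 0.963).

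The other 5 remodelling genes were the lysyl oxidases Lox and Loxl1, which crosslink collagen and elastin, the inhibitors Timp1 and Timp2, and the gelatinase Mmp2. They changed by -0.06 to 0.07 with fasting in wild-type and by -0.06 to 0.28 in knockout mice, and none passed. Lox and Timp1, both of which rise in the scarring liver, were dim here in the mean of all 16 mice.

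PDGF receptor beta is the receptor through which PDGF drives stellate cells to divide. Pdgfrb read 5.00, 4.95, 5.17 and 5.26 in the fed wild-type mice, and 4.82, 4.75, 4.83, 4.65 and 4.71 after fasting. In knockout mice Pdgfrb read 4.62, 5.08, 5.31 and 5.05 when fed and 4.74, 4.68 and 4.57 when fasted. Fasted mice were below fed mice in both genotypes but for knockout fed mouse 1, which lay among the fasted mice.

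The mean fasting change of Pdgfrb was -0.35 ± 0.08 (limma adjusted p = 0.0104), 1.27-fold lower, and it held without any single array. It was -0.34 ± 0.11 in wild-type (adjusted p = 0.0599) and -0.35 ± 0.12 in knockout mice (adjusted p = 0.156), neither of which passed. The wild-type value passed without knockout fed mouse 1 or 3 (adjusted p = 0.014 and 0.0336), and the knockout value passed when knockout fed mouse 1 was left out (-0.48, adjusted p = 0.0169). Leaving out knockout fed mice 1 and 4 gave -0.53 in knockouts (adjusted p = 0.0323). Pdgfra, the alpha receptor, gave 0.16 ± 0.20 and 0.22 ± 0.23 in wild-type and knockout mice and did not pass.

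Connective tissue growth factor is a secreted matricellular protein induced by TGF-beta and by YAP. Ctgf read 5.20, 5.63, 5.50 and 5.83 in the fed wild-type mice, and 6.14, 5.81, 5.91, 5.90 and 5.92 after fasting. In knockout mice Ctgf read 6.13, 5.33, 5.47 and 5.56 when fed and 6.04, 6.26 and 6.54 when fasted. In each genotype a single fed mouse reached the fasted range, wild-type fed mouse 4 at 5.83 and knockout fed mouse 1 at 6.13.

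The mean rise of Ctgf was 0.52 ± 0.12 (limma adjusted p = 0.00565), 1.44-fold, and held without any single array. The rise in knockout mice was 0.65 ± 0.17 (adjusted p = 0.0451), and the wild-type value was 0.40 ± 0.15 (adjusted p = 0.123). The call in knockout mice was lost without any 1 of 12 arrays: wild-type fed 2 or 3, wild-type fasted 2, 3, 4 or 5, knockout fed 2, 3 or 4, and knockout fasted 1, 2 or 3. In these the value was 0.52 to 0.77, with adjusted p of 0.0506 to 0.224. It was 0.88 (adjusted p = 0.0191) without knockout fed mice 1 and 4, and 0.67 (adjusted p = 0.0873) with the replicate number as a block. The responses of the genotypes differed by 0.26 ± 0.23 (adjusted p = 0.649).

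TGF-beta 1 is the main inducer of collagen synthesis. Tgfb1 read 4.70, 4.87, 4.78 and 4.84 in wild-type fed and 4.81, 4.87, 4.85, 4.43 and 4.84 in wild-type fasted mice. In knockout mice Tgfb1 read 5.01, 4.63, 5.19 and 5.36 when fed and 4.89, 4.82 and 4.69 when fasted. The 3 highest values were those of knockout fed mice 1, 3 and 4, and all groups compared overlapped. Its fasting change was -0.04 ± 0.12 in wild-type (adjusted p = 0.879) and -0.25 ± 0.14 in knockout mice (adjusted p = 0.439).

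Smooth muscle actin (Acta2) marks activated stellate cells and vessel walls. Acta2 read 4.19, 4.85, 5.06 and 6.73 in wild-type fed and 4.27, 4.40, 3.88, 3.93 and 4.99 in wild-type fasted mice. In knockout mice Acta2 read 5.38, 4.51, 4.11 and 5.37 when fed and 5.05, 4.13 and 3.91 when fasted. The spread within groups was wide, with an SD of 1.08 in wild-type fed mice, and all groups compared overlapped. The fasting change was -0.91 ± 0.41 in wild-type (95% interval -1.79 to -0.04, adjusted p = 0.201) and -0.48 ± 0.47 in knockout mice (adjusted p = 0.716). Over the alternatives tried, the wild-type value was -1.25 to -0.41 and the knockout value -0.82 to 0.05.

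Desmin marks quiescent stellate cells of rodents as well as muscle. Des read 3.04, 4.68, 2.59 and 6.20 in wild-type fed and 3.08, 2.84, 3.02, 3.20 and 3.14 in wild-type fasted mice. In knockout mice Des read 3.19, 3.06, 2.90 and 2.90 when fed and 4.95, 2.99 and 2.77 when fasted. Aside from 3 mice, the values stayed within 2.59 to 3.20 in every group. Its fasting change was -1.07 ± 0.55 in wild-type (95% interval -2.24 to 0.10) and 0.56 ± 0.63 in knockout mice (95% interval -0.77 to 1.89), and neither passed (adjusted p = 0.266 and 0.763). Over the alternatives tried, the wild-type value was -1.58 to -0.38 and the knockout value -0.13 to 0.96.

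Lecithin retinol acyltransferase (Lrat) esterifies retinol for storage in stellate cells. Lrat read 4.91, 5.06, 5.15 and 5.12 in wild-type fed and 4.09, 4.37, 4.86, 4.67 and 4.91 in wild-type fasted mice. In knockout mice Lrat read 5.06, 4.60, 5.30 and 4.74 when fed and 5.12, 5.39 and 4.84 when fasted. Wild-type fasted mice 1 and 2 were the 2 lowest, and wild-type fasted mouse 5 reached the lowest fed value. The fasting change was -0.48 ± 0.17 in wild-type (adjusted p = 0.0944) and 0.19 ± 0.19 in knockout mice (adjusted p = 0.721), with a difference of 0.67 ± 0.26 (adjusted p = 0.318).

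Reelin (Reln), a secreted glycoprotein of stellate cells, gave -0.13 ± 0.11 in wild-type and 0.27 ± 0.13 in knockout mice, and the knockout value passed without knockout fed mouse 3 (0.40, adjusted p = 0.0385). Neither passed with all arrays (adjusted p = 0.515 and 0.323). The difference between its responses was 0.41 ± 0.17 (adjusted p = 0.351).

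**Figure D4:**
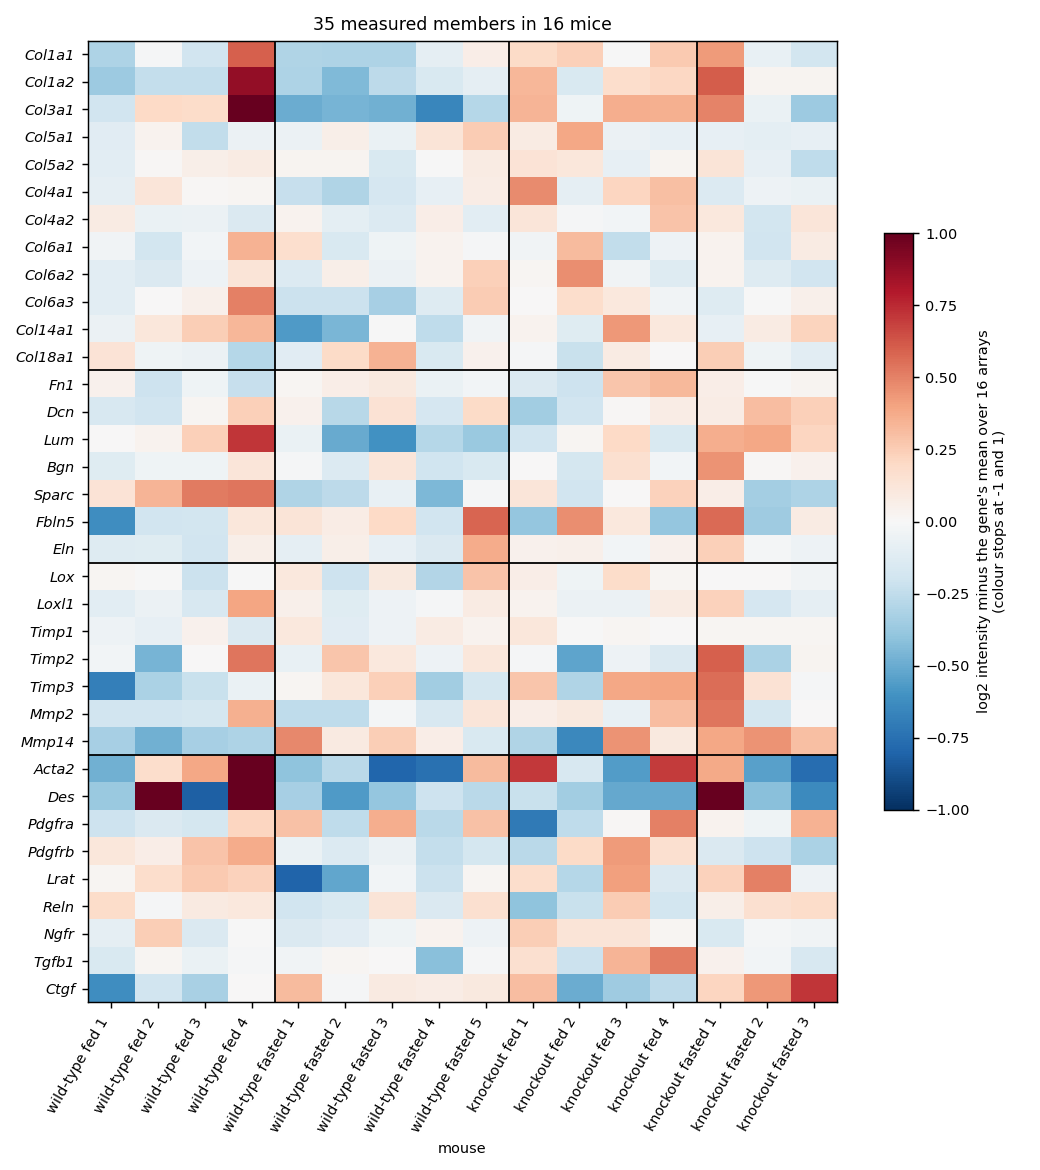
Log2 intensity minus the mean of the gene over the 16 arrays (colour, which stops at -1 and 1) for the 35 genes (vertical axis, lines between roles) in each mouse (horizontal axis, lines between groups). Wild-type fed mouse 4 and knockout fasted mouse 1 are both above the mean in Col1a1, Col1a2, Col3a1, Lum, Timp2, Mmp2, Acta2 and Des, and all 5 wild-type fasted mice are below it in Col3a1.

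The second comparison asked how knockout of PPARβ/δ changed these genes. In fed mice (4 against 4) none of the 35 genes passed at an adjusted p under 0.05 in limma, beside 0.677% of all genes. At an unadjusted p under 0.05 there were 1 higher and 1 lower gene, Timp3 and Sparc, where 6.28% and 6.92% of all genes were so. No gene had groups without overlap, against 6.70% of all genes (3.53% higher, 3.18% lower). The median difference was 0.03 over the 35 genes and 0.01 over all genes.

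Timp3 was 0.51 ± 0.18 higher in knockout fed mice (95% interval 0.14 to 0.88, adjusted p = 0.209). Sparc differed by -0.34 ± 0.13 (95% interval -0.61 to -0.07, adjusted p = 0.244), and Des by -1.12 ± 0.58 (95% interval -2.35 to 0.12, adjusted p = 0.435). Over the alternatives tried, the difference of Des was -1.63 to -0.43. Type I and III collagens differed by -0.07 to 0.15, and their 95% intervals ran from -0.53 to 0.59. These intervals do not show that the genotypes are alike.

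In fasted mice (3 knockout against 5 wild-type) none passed either, beside 0.537% of all genes. At an unadjusted p under 0.05, 5 were higher (4.85% of all genes) and 0 lower (5.51%), beside 10.4% of all genes in either direction. The 5 were Lum, Lrat, Col3a1, Col14a1 and Bgn. The median difference was 0.06 over the 35 genes and -0.02 over all genes. Lum and Col1a2 were higher in every knockout than in every wild-type mouse (3.81% of all genes), and the type V collagen chain Col5a1 was lower (4.44%).

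Lum came nearest to the threshold, at 0.69 ± 0.15 (95% interval 0.37 to 1.01, adjusted p = 0.0515), which is 1.61-fold higher in 3 of 3 knockout mice. It passed in 3 of the 16 fits without 1 array, namely wild-type fed mouse 1 (0.69, adjusted p = 0.0456), wild-type fed mouse 4 (0.69, adjusted p = 0.0166) and wild-type fasted mouse 1 (0.76, adjusted p = 0.0313). Lrat differed by 0.54 ± 0.18 (adjusted p = 0.29), Col3a1 by 0.50 ± 0.22 (adjusted p = 0.456) and Col1a2 by 0.47 ± 0.22 (adjusted p = 0.482). Bgn, a proteoglycan related to decorin, differed by 0.24 ± 0.11 (adjusted p = 0.45) and Col14a1 by 0.34 ± 0.14 (adjusted p = 0.42).

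In the mean of fed and fasted mice none passed, beside 1.55% of all genes, and 1 was higher at an unadjusted p under 0.05 (5.10% of all genes) and 0 lower (5.68%). This was Timp3, at 0.38 ± 0.13 (95% interval 0.12 to 0.65, adjusted p = 0.188), which passed without knockout fed mouse 2 (0.47, adjusted p = 0.0426). Col1a2 was 0.30 ± 0.16 (adjusted p = 0.517), and 0.45 without wild-type fed mouse 4 (adjusted p = 0.0303). Tgfb1, Acta2 and Col1a1 gave 0.15 ± 0.09, -0.15 ± 0.31 and 0.20 ± 0.12, all with adjusted p above 0.05. Over the same arrays 6 of 10 Kupffer cell markers passed as higher in knockout mice, beside 0.963% of all genes, and 9 of the 10 had a positive sign. The part of these markers in the values above was not tested.

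**Figure D5:**
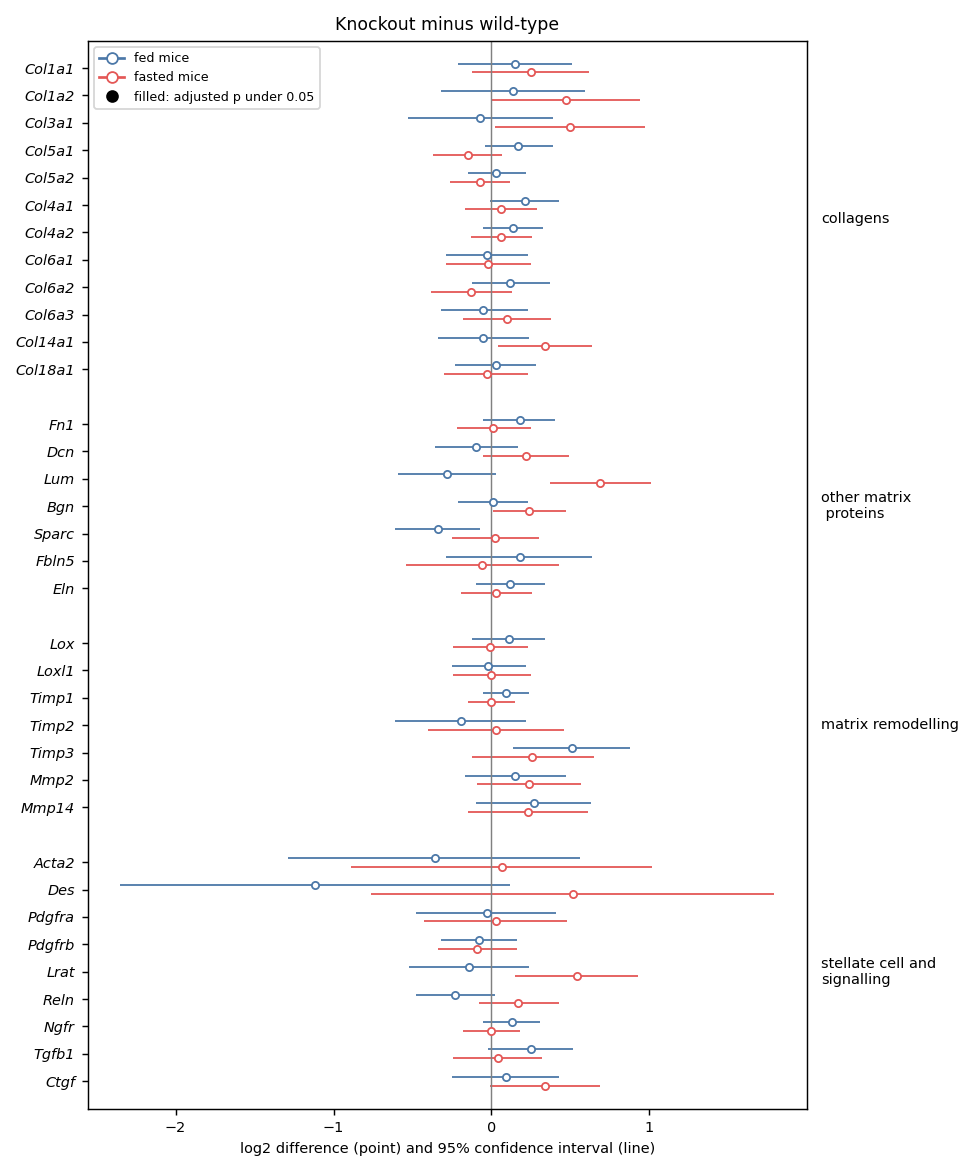
Knockout minus wild-type log2 difference (horizontal axis; point, with the 95% confidence interval of the limma fit as a line) for each of the 35 genes (vertical axis, grouped by role) in fed and fasted mice. No point is filled, since none passed at an adjusted p under 0.05, and Lum in fasted mice (0.69) lies farthest from 0 relative to its interval.

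The third comparison asked whether fasting acted differently in knockout mice. None of the 35 genes passed in the test of that difference, beside 0.0100% of all genes. At an unadjusted p under 0.05 there were 3 with a higher response in knockout mice (5.60% of all genes), Lum, Lrat and Reln, and 1 with a lower one (6.64%), Col5a1 at -0.32 ± 0.15 (adjusted p = 0.385). The largest difference was that of Des, at 1.63 ± 0.84 (95% interval -0.14 to 3.40, adjusted p = 0.44). Without wild-type fed mouse 4 and knockout fasted mouse 1, that of Des was 0.25 (adjusted p = 0.881). Fasting and knockout effects share arrays, so Lum's values in these comparisons are not separate results.

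Genes that process and secrete collagen were described from a fixed list, of which 25 of 28 were measured. With fasting in wild-type mice 2 rose and 2 fell (9.22% of all genes passed), in knockout mice 2 rose and 1 fell (3.67%), and in the mean 2 rose and 5 fell (10.9%). The median change was -0.04, -0.07 and -0.03, against 0.02, -0.02 and 0.00 over all genes. In wild-type mice genes of procollagen cleavage were among both those that rose (Bmp1) and those that fell (Pcolce).

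Bmp1, the procollagen C-proteinase, read 7.60 to 7.77 in wild-type fed and 8.04 to 8.32 in wild-type fasted mice, 7.42 to 7.81 in knockout fed and 7.95 to 8.21 in knockout fasted mice. The feeding states did not overlap in either genotype, and the mean rise was 0.43 ± 0.07 (limma adjusted p = 2.94e-04). Mia3, which loads procollagen into transport carriers, rose by 0.65 ± 0.11 in the mean (adjusted p = 5.41e-04). The collagen prolyl isomerase Ppib and the enhancer of procollagen cleavage Pcolce fell in wild-type mice, by 0.64 ± 0.09 (adjusted p = 3.58e-04) and 0.50 ± 0.11 (adjusted p = 0.0065). These 4 calls held without any single array.

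The lysyl oxidase Loxl4 read 2.96, 2.69, 3.15 and 2.85 in wild-type fed and 5.04, 3.98, 3.39 and 3.73 in knockout fed mice. Loxl4 read 2.77, 2.94, 2.63, 2.73 and 3.07 in wild-type fasted and 3.11, 2.83 and 2.81 in knockout fasted mice. Every knockout fed mouse was above all other mice, with knockout fed mouse 1 the highest.

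In fed mice Loxl4 was the 1 gene of this list that passed between genotypes, at 1.12 ± 0.24 (adjusted p = 0.0411; 0.677% of all genes passed). The call held in 4 of the 16 fits without 1 array, those without wild-type fasted mouse 3 or 5 or knockout fed mouse 1 or 3. Over the 16 fits the value was 0.79 to 1.34 with adjusted p of 0.0109 to 0.104. Without knockout fed mice 1 and 4 it was 0.77 (adjusted p = 0.094).

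Of 39 further matrix proteins 38 were measured. With fasting none passed in wild-type mice in limma, where 1 was higher (10.3% of all genes) and 6 lower (12.2%) at an unadjusted p under 0.05. In knockout mice 2 rose and 1 fell (7.89% of the list, beside 3.67% of all genes), and in the mean 1 rose and 2 fell (7.89%, beside 10.9%). Between genotypes 2 were higher in fasted knockout mice (0.351% of all genes) and 1 in the mean of both feeding states (0.963%). The small proteoglycan Omd, which was dim, rose by 0.34 ± 0.06 in the mean fasting comparison (adjusted p = 0.00172), and this held without any single array.

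Periostin (Postn), a matricellular protein of activated fibroblasts, read 2.78, 2.90, 3.09, 2.75 and 2.95 in wild-type fasted and 3.47, 4.10 and 3.58 in knockout fasted mice. In fed mice Postn read 2.86, 3.04, 3.18 and 3.49 in wild-type and 3.51, 3.09, 3.85 and 3.20 in knockout mice. The genotypes were apart in the fasted state and overlapped in the fed state.

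In fasted mice Postn was 0.83 ± 0.18 higher in knockouts (adjusted p = 0.0476). The call held in 5 of the 16 fits without 1 array, those without wild-type fed mouse 1 or 4, wild-type fasted mouse 3 or knockout fed mouse 2 or 3. The value was 0.63 (adjusted p = 0.276) without knockout fasted mouse 2. The fibulin Efemp1 was 0.49 ± 0.10 higher in the same comparison (adjusted p = 0.0424), and its call held in 8 of 16, with values of 0.45 to 0.54 and adjusted p of up to 0.181 without knockout fasted mouse 3.

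Of the matrix proteases and their regulators 26 of 29 were measured. With fasting 3 passed as lower in wild-type mice, 1 in knockout mice and 3 in the mean, and none passed as higher. These were 11.5%, 3.85% and 11.5% of the list, near the 9.22%, 3.67% and 10.9% of all genes that passed. The sheddase Adam17 fell by 0.48 ± 0.09 in wild-type mice and by 0.44 ± 0.10 in knockouts (adjusted p = 0.00235 and 0.023). The first of these held without any single array, and the second was lost without knockout fed mouse 4 or any 1 of the 3 knockout fasted mice (-0.45 to -0.40, adjusted p of 0.0671 to 0.0904). Mmp19, a metalloproteinase of basement membrane proteins, fell by 0.40 ± 0.09 in the mean (adjusted p = 0.00601) and held likewise.

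All 31 genes of TGF-beta and PDGF signalling were measured, and 2 fell with fasting in wild-type mice (6.45% of the list, beside 9.22% of all genes). Pdgfc, a PDGF ligand, read 5.22 to 5.51 in fed and 4.03 to 4.92 in fasted mice, a fall of 0.93 ± 0.16 (adjusted p = 0.00106) that held without any single array. Ccn1, a matricellular relative of Ctgf, fell by 1.20 ± 0.30 (adjusted p = 0.0179), and by 1.06 and 0.97 without wild-type fed mouse 2 or 3 (adjusted p = 0.0629 and 0.0797). Both Ctgf and Ccn1 are known targets of YAP, whose activity was not tested. The wild-type value of Ctgf was 0.40 ± 0.15 and did not pass.

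In knockout mice 1 gene of this list passed as higher with fasting and none as lower (3.23%, beside 3.67% of all genes). In the mean 1 rose and 1 fell (6.45%, beside 10.9%). The gene that rose was Smad7, an inhibitor of TGF-beta signalling, by 0.87 ± 0.23 in knockout mice (adjusted p = 0.0392) and 0.59 ± 0.15 in the mean (adjusted p = 0.0157). Its call in knockout mice held in 9 of the 16 fits without 1 array (0.77 to 1.04, adjusted p of up to 0.159, the highest without knockout fasted mouse 1). The call in the mean was lost without knockout fasted mouse 1 (0.54, adjusted p = 0.0503). Pdgfc was the gene that fell in the mean, by 0.59 ± 0.12 (limma adjusted p = 0.00281). In knockout mice alone Pdgfc did not pass, with overlapping values of 5.14 to 5.57 when fed and 4.77 to 5.32 when fasted. Between genotypes Ltbp4, which binds latent TGF-beta, was the 1 gene that passed, with 0.47 ± 0.09 in the mean of both feeding states (adjusted p = 0.0136; 0.963% of all genes were higher). This held without any single array and was 0.42 (adjusted p = 0.0862) without knockout fed mice 1 and 4. In fasted mice alone Ltbp4 passed narrowly, at 0.60 ± 0.13 (adjusted p = 0.05 after rounding; 0.351% of all genes were higher). That call held in 4 of the 16 fits without 1 array, those without wild-type fed mouse 1 or 4, wild-type fasted mouse 5 or knockout fed mouse 2, and the value was 0.44 (adjusted p = 0.226) without knockout fasted mouse 1.

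Among 18 of 20 measured genes of quiescent stellate cells none passed with fasting in wild-type mice in limma, where 3 were higher (10.3% of all genes) and 2 lower (12.2%) at an unadjusted p under 0.05; 9.22% of all genes passed. In knockout mice 1 rose (5.56% of the list, beside 3.67% of all genes), Hhip, a membrane protein that binds hedgehog ligands. Hhip read 2.53 to 2.98 in knockout fed and 3.24 to 3.50 in knockout fasted mice, a rise of 0.67 ± 0.13 (adjusted p = 0.00607), which held without any single array and was 0.54 (adjusted p = 0.0988) without knockout fed mice 1 and 4. In the mean 2 rose (11.1%, beside 10.9% of all genes), Hhip by 0.41 ± 0.08 (adjusted p = 0.00336) and the VIP receptor Vipr1 by 0.31 ± 0.08 (adjusted p = 0.0147). The first held without any single array, and the second was lost without knockout fasted mouse 3 (0.27, adjusted p = 0.0559).

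Between genotypes 1 of the 18, the regulator of G protein signalling Rgs5, was lower in knockouts when fed and fasted mice were averaged, at -0.35 ± 0.08 (adjusted p = 0.0269; 1.55% of all genes passed). Its call was lost without wild-type fed mouse 2, 3 or 4, knockout fed mouse 1 or knockout fasted mouse 2, with values of -0.35 to -0.30 and adjusted p of 0.0535 to 0.0978. Of the 19 portal fibroblast and smooth muscle genes 1 fell with fasting in wild-type mice (5.26%, beside 9.22% of all genes), the contractile cell protein Smtn, by 0.29 ± 0.09 (adjusted p = 0.0457). This call held in 4 of the 16 fits without 1 array, those without wild-type fed mouse 1, wild-type fasted mouse 5 or knockout fed mouse 2 or 3, and was -0.24 (adjusted p = 0.158) without wild-type fed mouse 3. In this list none passed in any other comparison in limma (lowest adjusted p = 0.195).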

How the data were processed

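Liver RNA of 16 mice was measured with 1 Affymetrix whole-transcript array each. The authors deposited 1 table of normalized intensity values, made with RMA per the submitters' processing notes; its version and the genome build were not given in the sources used here. Values are linear intensity as deposited, and their log2 was taken here. Array medians of linear intensity were 8.08 to 8.61; their number sets the precision.

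Of 35519 probe sets, 21780 had 1 gene symbol, 1605 several and 12134 none. Genes were read from the probe set with 1 symbol and the highest mean (998 genes had more than 1), which gave 19935 genes. The 4 group means were fitted to all 16 arrays with limma 3.58.1 in R 4.3.3 (12 residual and 4.55 prior degrees of freedom), and p-values were adjusted by Benjamini-Hochberg over all genes. A gene passed at an adjusted p under 0.05. The fit was tested on simulated data. For the interaction it recovered 28% of log2 differences of 0.5 and 82% of those of 1. For the other contrasts it recovered 60% to 88% and 90% to 100%. A gene that did not pass is thus not shown to be unchanged. Labels call the arrays of a group biological replicates; no label says whether mice shared a litter or cage.

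The 36 genes, the related lists and the tests were chosen with earlier results of these data known. Each sample's value was given for genes that passed in any of 7 contrasts, for Col1a1, Col3a1, Acta2, Lrat and Tgfb1, and for the gene with the largest change of each role in each contrast; up to 3 genes that passed per direction were named from a related list. Alternatives covered normalization, dim genes, the choice of probe set, the variance model, weights per array, a block for the replicate number and left-out arrays. Promoter sequences are RefSeq's, GRCm38.p6.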

Additional observations from a re-analysis of the deposited data

Results flagged for a closer look

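Among 105 checks of a gene within a group of 4 or 5 mice, 7 found a mouse far from the others relative to the range of its group. This is near the 1 in 20 or so that chance gives. The gap to the nearest mouse was 0.86 to 0.96 of the range in these. The size of the gap itself was not counted. Acta2 (6.73) and Des (6.20) in wild-type fed mouse 4 were not flagged. Wild-type fed mouse 4 was highest for Col1a2 at 5.78 (other mice of the group 4.54 to 4.66), for Mmp2 at 4.42 (3.87 to 3.89) and for Pdgfra at 5.22 (4.80 to 4.86). Wild-type fed mouse 3 was lowest for the dim gene Lox at 1.92 (2.13 to 2.15), and wild-type fed mouse 2 for Mmp14 at 6.09 (6.24 to 6.26). Wild-type fasted mouse 4 was lowest for Tgfb1 at 4.43 (4.81 to 4.87), and knockout fed mouse 2 for Col3a1 at 4.92 (5.30 to 5.33).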

How the results depend on the processing

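Of 9 results that passed, 6 passed in every other setting but 1 and with every single array left out: Lum and Sparc in wild-type fasting, and Sparc, Mmp14, Pdgfrb and Ctgf in mean fasting; the exception was Mmp14 without wild-type fed mouse 4 and knockout fasted mouse 1 (0.50, adjusted p = 0.0518). None of the 229 alternative values of these 9 changed sign. Of the 6015 alternative values of the 236 results that did not pass, 346 had the other sign and 46 passed. The number of the 35 genes passing for fasting in wild-type mice was 3, and became 5 with median centring, 6 with dim genes left out, 7 with array weights, 5 with the replicate number as a block and 5 with the 2 groups fitted alone; leaving out 1 array gave 2 to 6. For fasting in knockout mice it was 1, and became 0 with quantile normalization, 0 with the replicate block, 0 with the 2 groups alone and 2 without knockout fed mice 1 and 4; leaving out 1 array gave 0 to 2. For knockout in fasted mice it was 0, and became 1 (Lum) with median centring, with dim genes left out, with an intensity trend and robust variance, with array weights and with the 2 groups alone; leaving out 1 array gave 0 to 1, as it did for the mean knockout comparison. Mean fasting gave 4 to 6 throughout, and knockout in fed mice and the interaction gave 0 throughout. The causes were not tested.

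Over all genes, 1838 passed for fasting in wild-type mice (1362 to 2142 in other settings, 1199 to 2006 without 1 array), 732 in knockout mice (218 to 914, 330 to 951), 135 for knockout in fed mice (51 to 173, 59 to 274), 107 in fasted mice (45 to 185, 21 to 126) and 309 in the mean of both (171 to 397, 175 to 359). The share that was lower moved from 64.2% to 53.5% under quantile normalization for fasting in wild-type mice, and under median centring from 49% to 37.4% for fasting in knockout mice and from 34.6% to 24% for knockout in fasted mice. Of the 44 results that passed in the related lists over the 7 contrasts, 16 passed without any single array; these alternatives, and leaving out wild-type fed mouse 4 with knockout fasted mouse 1, were chosen after seeing the data. Replicate numbers were not taken to pair the mice in the main fit. Of 21 same-numbered pairs across groups 5 correlated above 0.1, with a range of -0.25 to 0.23, against -0.34 to 0.29 in other pairs. Such correlations cannot show how the mice were housed or processed.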
